A study of Mus musculus with 12 samples.

Results

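Potassium channel genes were followed in ribosome-bound RNA from the inner ear of newborn mice. A gene was taken when its symbol began with Kcn, further letters and a number, did not end in os, and reached 1 CPM (its reads scaled to the size of the library) in 3 or more of an organ's 6 libraries. Of 92 such symbols listed in the cochlea 61 passed, and of 93 in the vestibule 63 passed, out of 17985 and 15595 genes tested. They came to 72 genes in either organ and 52 in both. Kcnq1ot1 and Kcnmb4os2, which are RNAs transcribed at channel loci and encode no channel, match the pattern and are described apart, which leaves 60 channel and auxiliary subunit genes in the cochlea and 61 in the vestibule. The study pulled down HA-tagged ribosomes from Gfi1Cre/+;RiboTagHA/HA heterozygotes and Gfi1Cre/Cre;RiboTagHA/HA mutants aged P0 to P1 (the first days after birth), and each organ has 3 libraries of either genotype, 12 in all. Every mouse carried RiboTagHA/HA, in which Cre switches on an HA-tagged ribosomal protein, and Cre was expressed from the Gfi1 locus, so that heterozygotes kept an unmodified copy of Gfi1 and mutants had Cre on both copies. Gfi1 is also active in blood cells, so that Cre driven by it is not restricted to hair cells, and the number of animals behind a sample is not known here. The dose of Cre and the loss of unmodified Gfi1 cannot be told apart. All 12 libraries are of pulled-down RNA and none is of RNA from before the pulldown. RNA carried over from cells without the tag therefore cannot be told apart from RNA on tagged ribosomes. Cochlear and vestibular libraries were made with different kits, so levels were not compared between organs.

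Potassium channels set the resting potential of a cell and end its depolarisation. Voltage-gated pore subunits open on depolarisation, silent subunits join them and alter their gating, calcium- and sodium-activated channels respond to ions inside the cell, inward rectifiers and tandem-pore leak channels act near rest, and auxiliary subunits change the trafficking or gating of a pore. Hair cells, which detect sound and head motion, use potassium both to carry the transduction current and to repolarise. Kcna10 encodes a voltage-gated subunit known from hair cells, while Kcnq1 with Kcne1, and Kcnj10, are known from the cells around them that secrete or buffer potassium.

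Cochlear libraries held 7531518 to 9363796 reads and vestibular ones 18951026 to 29370267, so that 1 read was worth 0.107 to 0.133 CPM and 0.0340 to 0.0528 CPM. Gfi1, which encodes a zinc finger transcriptional repressor, was lower in mutants in both organs, with log2 changes of -0.90 and -1.19 (limma, BH-adjusted p = 0.00355 and 0.00234). The sum of 9 hair cell markers was 4242 to 4935 CPM in heterozygous and 2867 to 3418 CPM in mutant cochleae, where 5 of the 9 fell, and 8536 to 9212 and 9230 to 9885 CPM in the vestibule, where Pvalb rose and none fell. Markers of sensory ganglion neurons summed to 1540 to 2203 CPM in heterozygotes against 2182 to 2493 CPM in mutants in the cochlea (4 of 11 rose) and to 1408 to 1597 and 2346 to 2430 CPM in the vestibule (4 of 9 rose and Ntrk2 fell). Granulocyte markers summed to 28.7 to 52.4 CPM in heterozygous and 3.87 to 9.37 CPM in mutant cochleae (3 of 4 fell) and to 73.8 to 124.6 and 11.6 to 12.5 CPM in the vestibule (4 of 5 fell). Mast cell markers summed to 130.8 to 179 and 86.6 to 138 CPM in the cochlea (2 of 5 fell) and to 1543 to 1806 and 186 to 402 CPM in the vestibule (4 of 5 fell). Every marker of these lists had reads. Markers said to rise or fall are those with a BH-adjusted p under 0.05 in limma. Of all genes tested 1.9% were called higher and 2.52% lower in this way in the cochlea. In the vestibule 2.41% were called higher and 1.09% lower. In such bulk samples fewer cells of a type and less RNA per cell cannot be told apart. On the first principal component of the vestibule both replicate 1 libraries lay at -29.2 and -51.7 and the others at 4.96 to 36.0.

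The levels of different genes were compared per length of exon, as CPM per kb. In heterozygous cochleae Kcnh7, a voltage-gated subunit of the ether-a-go-go related group, stood highest at 19.9 CPM per kb, followed by Kcnmb2, an auxiliary subunit of the large-conductance calcium-activated channel, at 17.3 CPM per kb and Kcna10 at 16.8 CPM per kb. Their libraries held 283 to 314 CPM for Kcnh7 (15226 bases of exon), 46.9 to 57.9 CPM for Kcnmb2 (3128 bases) and 29.9 to 42.9 CPM for Kcna10 (2168 bases). Per kb Kcna10 overlapped both others, while the lowest Kcnh7 library stood just above the highest Kcnmb2 library. In mutant cochleae Kcna10 was at 1.31 CPM per kb and stood 29th of 60. In heterozygous vestibules Kcna10 led at 219.9 CPM per kb, with Kcnmb2 next at 26.2 CPM per kb and Kcnh6, of the same group as Kcnh7, after it at 21.0 CPM per kb. Kcna10 remained first in mutant vestibules at 107 CPM per kb, followed by Kcnh6 at 29.1 CPM per kb.

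**Figure D1:**
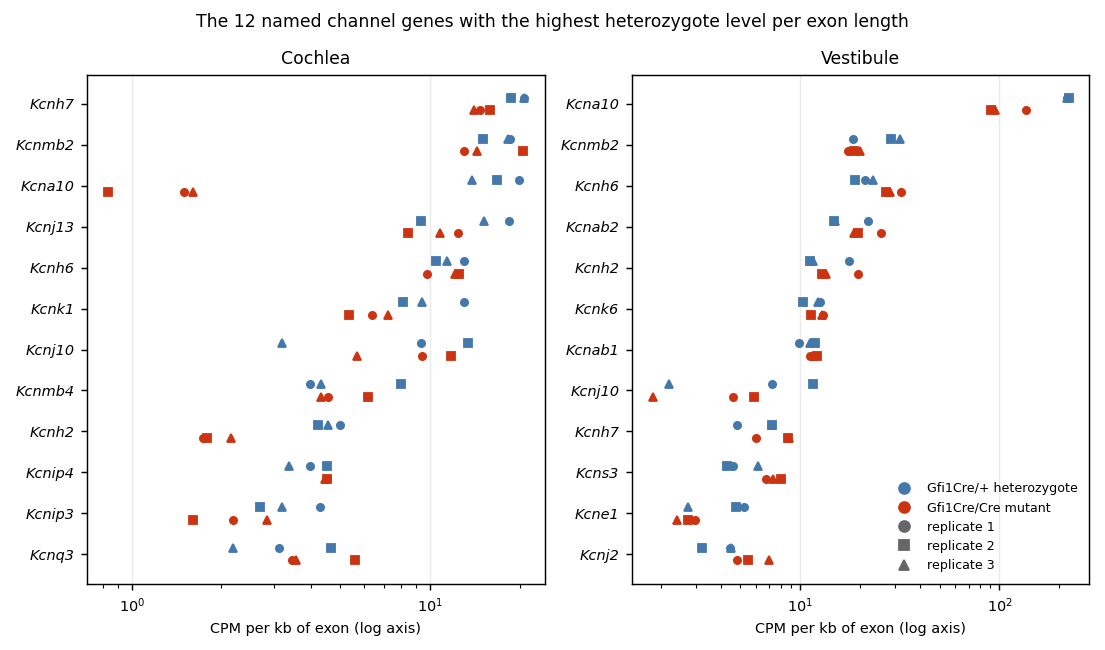
Level of 12 named channel genes, those with the highest heterozygote mean, in CPM per kb of exon on a log axis, by organ; each symbol is a library, blue for heterozygotes and red for mutants. Kcna10 falls from among the highest levels in the cochlea, from a mean of 16.8 to 1.31 CPM per kb, and stays highest in the vestibule, from 219.9 to 107 CPM per kb.

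The cochlear comparison asked which channel transcripts in the pulled-down RNA differed between mutants and heterozygotes. Of the voltage-gated pore subunits 3 fell, Kcna10 and Kcnh2 among them, and Kcnj5, an inward rectifier, and Kcng1, a silent subunit, rose. These were 5 of 60 genes, or 8.33%, against 4.41% of all genes tested (1.9% higher and 2.52% lower), counting as called any gene with a p from limma on log2(CPM + 1) under 0.05 after adjustment over all genes by the method of Benjamini and Hochberg (BH). The median log2 change of the 60 was -0.07, against 0.05 over all genes tested. With the replicate number as a block 9 of 60 were called, 4 higher and 5 lower, or 15% against 8.52% of all genes (4.21% higher and 4.31% lower). The libraries of both genotypes did not overlap for 11 of 60 genes (6 with mutants above and 5 below), 18.3% against 17.5% of all genes (9.74% and 7.77%). On the recovered reads edgeR called 5, against 4.52% of all genes, and DESeq2 6, against 5.31%. Both genes that rose belonged to 12 that reached 1 CPM in fewer than 3 libraries of 1 genotype, and such a gene can enter through the genotype where it is high. Without heterozygote replicate 1, mutant replicate 1 or mutant replicate 2 only the 3 falls were called.

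**Figure D2:**
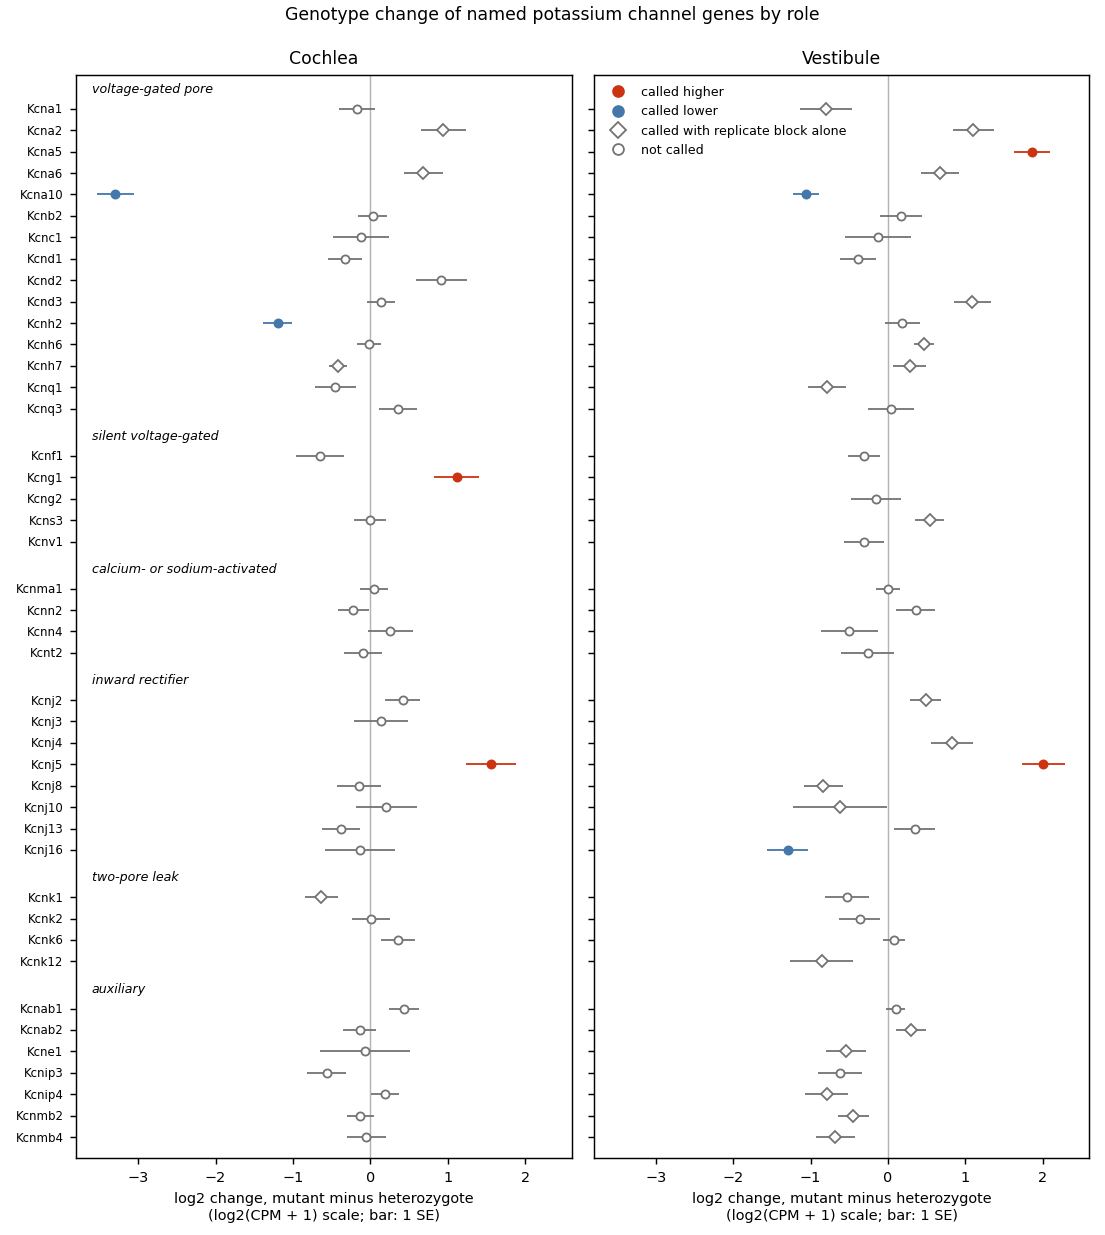
Log2 change from heterozygote to mutant on the log2(CPM + 1) scale for the channel and auxiliary subunit genes named here, by role and organ, with bars of 1 standard error. Filled circles were called by limma, diamonds were called only with the replicate block, and open circles were not called; 2 genes are higher and 2 lower in each organ among those drawn.

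Kcna10, a shaker-related subunit (chromosome 3, 107183056 to 107195721, plus strand, GRCm38), had the largest change of any channel gene in either organ. Its levels were 42.9, 36.4 and 29.9 CPM in heterozygous and 3.25, 1.81 and 3.47 CPM in mutant cochleae. All mutant libraries lay far below all heterozygous ones. The mean was 36.4 ± 6.52 CPM (SD, n = 3) in heterozygotes and 2.84 ± 0.905 CPM in mutants, which is 12.8-fold lower. On the log2(CPM + 1) scale the change was -3.30 (SE 0.24, limma, BH-adjusted p = 3.54e-06). Only 4 of 17985 genes had a more negative change. The 250 bases before the start that RefSeq gives it (chr3:107182893-107183142, plus strand, GRCm38.p6), which lies 87 bases inside the GENCODE gene model, are shown because Kcna10 fell in both organs, with capitals at each AATC or its complement GATT, the core letters of sites bound by GFI1.
Kcna10: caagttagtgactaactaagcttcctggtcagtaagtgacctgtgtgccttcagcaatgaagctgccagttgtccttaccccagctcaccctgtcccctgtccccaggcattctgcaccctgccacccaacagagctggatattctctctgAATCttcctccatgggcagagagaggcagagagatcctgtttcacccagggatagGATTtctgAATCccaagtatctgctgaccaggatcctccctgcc

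Kcnh2, the ether-a-go-go related subunit known from the heart (chromosome 5, 24319589 to 24351604, minus strand), was at 24.1, 20.4 and 22.1 CPM in heterozygous and 8.37, 8.65 and 10.4 CPM in mutant cochleae. The groups stood well apart, with means of 22.2 ± 1.85 and 9.15 ± 1.11 CPM and a log2 change of -1.20 (SE 0.19; limma, BH-adjusted p = 0.00161). This call and that of Kcna10 held without any 1 library (limma, BH-adjusted p up to 0.0145). Hair cell markers were also lower in these mutant libraries, with a median log2 change of -0.89, and their part in the falls was not tested. Kcnh2 is shown by its promoter as a gene whose change differed between the organs (chr5:24329592-24329841, minus strand), marked in the same way. The window precedes a start in the RefSeq table that lies 22.0 kb inside the GENCODE gene model given above, not the outermost start.
Kcnh2: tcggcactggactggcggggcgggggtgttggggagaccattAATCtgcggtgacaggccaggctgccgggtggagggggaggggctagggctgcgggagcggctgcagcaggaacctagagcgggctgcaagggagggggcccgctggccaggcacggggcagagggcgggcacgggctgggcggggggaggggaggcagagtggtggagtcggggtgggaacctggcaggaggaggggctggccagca

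Of the voltage-gated pore genes of the cochlea 22 were not called. Kcnh7 went from 314, 283 and 314 CPM to 224, 242 and 214 CPM without overlap, a log2 change of -0.42 (SE 0.12; limma, BH-adjusted p = 0.0673), and was called lower with the replicate block (limma, BH-adjusted p = 0.00472). Kcna2, a shaker-related subunit of axons, was higher in all 3 same-numbered pairs. It was at 7.88, 11.9 and 5.13 CPM in heterozygotes against 13.1, 23.5 and 13.4 CPM in mutants (log2 change 0.94, SE 0.29; limma, BH-adjusted p = 0.115, or 0.00191 with the block). Kcna6 was called higher with the block only (0.68, SE 0.25; limma, BH-adjusted p = 0.224, or 0.0476 with the block), and 39.6% of its exon sequence lies under a second gene. Kcnb2, a delayed rectifier subunit, had a log2 change of 0.03 (SE 0.19). Kcnc1 and Kcnd1, of the fast-gating Kcnc and Kcnd subfamilies, had -0.12 (SE 0.36) and -0.33 (SE 0.22). Kcnq3, a subunit of the neuronal M-current, was at 49.0 ± 18.4 CPM in heterozygotes against 61.8 ± 18.0 CPM in mutants (0.36, SE 0.25).

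Kcnj5, a subunit of the inward rectifier opened by G proteins (chromosome 9, 32314707 to 32344350, minus strand), was close to the detection floor in heterozygous cochleae. Its levels were 0.381, 1.46 and 0.107 CPM, from 3, 11 and 1 reads, against 4.25, 4.13 and 2.55 CPM in mutants, from 34, 32 and 22 reads. The groups did not overlap. The log2 change was 1.56 (SE 0.32; limma, BH-adjusted p = 0.0119). It was no longer called once heterozygote replicate 1 or mutant replicate 1 or 2 was left out (limma, BH-adjusted p up to 0.0713). The promoter of Kcnj5 (chr9:32344345-32344594, minus strand), the gene that rose in both organs, and that of Kcna5 (chr6:126535556-126535805, minus strand), which rose beside it in the vestibule, follow with the same marks. The RefSeq start lies 6 bases inside the GENCODE model for Kcnj5 and outside it for Kcna5.
Kcnj5: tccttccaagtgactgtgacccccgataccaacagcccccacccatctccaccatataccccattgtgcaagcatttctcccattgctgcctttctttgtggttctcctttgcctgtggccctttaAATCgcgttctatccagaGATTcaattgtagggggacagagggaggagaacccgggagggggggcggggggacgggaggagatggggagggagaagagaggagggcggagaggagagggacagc
Kcna5: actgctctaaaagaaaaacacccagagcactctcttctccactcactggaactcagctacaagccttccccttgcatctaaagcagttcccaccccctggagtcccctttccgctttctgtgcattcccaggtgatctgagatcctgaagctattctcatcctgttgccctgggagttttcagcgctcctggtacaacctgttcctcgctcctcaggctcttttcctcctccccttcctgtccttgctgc

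AATC on either strand was present 3 times in the window of Kcna10, 2 times in that of Kcnj5, 1 time in that of Kcnh2 and not in that of Kcna5. It was found in 69.0% of all 32851 promoter windows of that length and in 60.3% of 73 windows of the channel genes. The longer AATCAC, which contains AATC, was in 9.14% of all windows and in none of these 4. The E-box CANNTG, the letters bound by ATOH1 and other bHLH factors, was present 2 times for Kcnj5, 1 time each for Kcna10 and Kcna5 and not for Kcnh2, against 66.2% of all windows with at least 1 match. Promoter windows were at hand for 52 of the 72 genes, including 5 of the 7 that were called.

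Kcng1, a silent subunit that joins the delayed rectifier subunits of the Kcnb subfamily, was at 1.02, 0.266 and 1.07 CPM in heterozygous and 2.999, 3.48 and 1.97 CPM in mutant cochleae, from 2 to 27 reads a library. Mutants lay above heterozygotes, with a log2 change of 1.11 (SE 0.29; limma, BH-adjusted p = 0.0482). It was no longer called once replicate 1 or 2 of either genotype was left out (limma, BH-adjusted p up to 0.203) and in edgeR (BH-adjusted p = 0.0888). The other silent subunits were not called, with Kcnf1 at -0.65 (SE 0.31) and Kcns3 at -0.00 (SE 0.21).

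No calcium- or sodium-activated, tandem-pore or auxiliary gene was called in the cochlea, of 7, 6 and 9 tested, against 4.41% of all genes. Among them edgeR called none and DESeq2 called Kcnk1 (BH-adjusted p = 0.0404). Kcnma1, the pore of the large-conductance calcium-activated channel, was at 14.2 ± 0.463 CPM in heterozygotes against 14.8 ± 1.60 CPM in mutants, and its partner Kcnmb2 at 54.0 ± 6.17 and 49.98 ± 12.45 CPM. Kcnn2, the small-conductance calcium-activated channel that acts beside the efferent nicotinic receptor, was at 18.7 ± 2.37 and 16.04 ± 3.20 CPM (log2 change -0.22, SE 0.20). Kcnk1, a tandem-pore channel, went from 29.1, 18.2 and 21.0 CPM to 14.2, 12.0 and 16.2 CPM without overlap (-0.63, SE 0.21; limma, BH-adjusted p = 0.142, or 0.0177 with the block). Kcnab1, a cytoplasmic subunit of shaker-related channels, was at 27.6 ± 7.38 and 36.7 ± 3.76 CPM (0.43, SE 0.20). Kcnip4, which binds channels of the Kcnd subfamily, was at 14.3 ± 2.08 and 16.3 ± 0.163 CPM, and Kcnt2, of the sodium-activated group, at 6.04 ± 1.33 and 5.55 ± 0.952 CPM. Among inward rectifiers Kcnj13, which shares exon bases with another gene, was at 18.1 ± 5.85 and 13.4 ± 2.53 CPM (-0.38, SE 0.25). Kcnj2, an inward rectifier that sets the resting potential, was at 6.09 ± 1.18 and 8.40 ± 0.769 CPM (0.42, SE 0.23).

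Kcnj10, the potassium-buffering inward rectifier of glia and supporting cells, differed more between replicate numbers than between genotypes in the cochlea. It was at 50.4, 72.5 and 17.3 CPM in heterozygotes against 50.6, 63.6 and 30.7 CPM in mutants, so that both replicate 3 libraries were lowest. Kcne1, a subunit of the channel by which marginal cells secrete potassium, was likewise lowest in replicate 3, at 0.534 and 0.347 CPM, while the other libraries held 2.92 to 6.90 CPM. Markers of marginal and dark cells, without channel genes, summed to 351.6 and 320.3 CPM in the replicate 3 libraries and to 431 to 510.3 CPM in the others. Other lists went differently. Schwann and satellite glia markers summed to 294 and 283 CPM in replicate 3 and to 209 to 271 CPM in the others. Supporting cell markers summed to 628 and 601 CPM against 461 to 543 CPM. Melanocyte and intermediate cell markers summed to 26.2 and 24.3 CPM against 23.5 to 33.7 CPM. The part of these cells in the low replicate 3 levels was not tested.

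**Figure D3:**
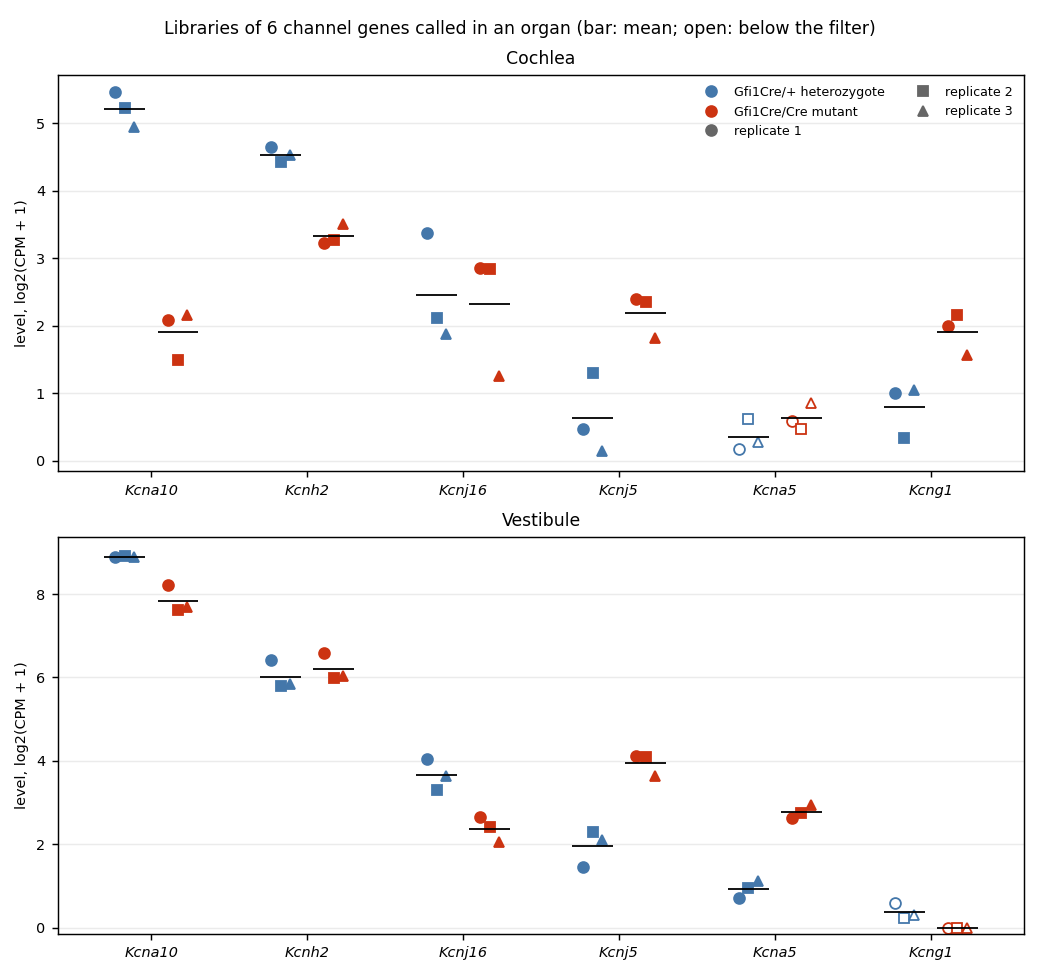
Level on the log2(CPM + 1) scale of 6 channel genes called in an organ, for each library of the cochlea (top) and vestibule (bottom); colour gives the genotype, shape the replicate and the bar the group mean. Kcna10 falls and Kcnj5 rises in both organs without overlap, while Kcnh2 separates in the cochlea and overlaps in the vestibule.

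The vestibular comparison asked the same question of the balance organs. Kcna10 and Kcnj16, an inward rectifier subunit that pairs with Kcnj10, fell, and Kcna5, a shaker-related subunit, and Kcnj5 rose. These 4 of 61 genes were 6.56%, against 3.5% of all genes tested (2.41% higher and 1.09% lower), and the median log2 change of the 61 was -0.10 against -0.06 over all genes. With the replicate block 12 genes were called higher and 11 lower, 37.7% against 23.3% of all genes (10.5% higher and 12.8% lower). The groups did not overlap for 21 of 61 genes (11 with mutants above and 10 below), 34.4% against 22.3% of all genes (10.7% and 11.6%). On the recovered reads edgeR called 4, against 3.36% of all genes, and DESeq2 7, against 7.91%. Kcna5 was the called gene among 12 that reached 1 CPM in fewer than 3 libraries of 1 genotype, and such a gene can enter through the genotype where it is high. With replicate 2 or 3 of either genotype left out only the 2 rises were called.

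Kcna10 was at 475, 482 and 473 CPM in heterozygous and 295, 196 and 206 CPM in mutant vestibules. Heterozygotes were nearly alike and every mutant library lay below them, with means of 477 ± 4.57 and 232 ± 54.6 CPM and a log2 change of -1.06 (SE 0.17; limma, BH-adjusted p = 0.0121). That value stayed between -1.25 and -0.95 without any 1 library, but Kcna10 was no longer called once replicate 2 or 3 of either genotype was left out (limma, BH-adjusted p up to 0.0689). Hair cell markers were not lower as a group here, with a median log2 change of 0.10. With the block 3 of the 9 were called higher and 1 lower, against 10.5% and 12.8% of all genes.

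Kcna5 (chromosome 6, 126532551 to 126535412, minus strand) was at 0.625, 0.923 and 1.16 CPM in heterozygous and 5.22, 5.73 and 6.63 CPM in mutant vestibules, from 14 to 34 and 99 to 162 reads, so that it reached 1 CPM in 1 heterozygous and all 3 mutant libraries. The gap between the groups was wide, a 6.502-fold rise of the mean. On the log2(CPM + 1) scale the change was 1.86 (SE 0.23, limma, BH-adjusted p = 0.00445). Kcnj5 was at 1.74, 3.90 and 3.27 CPM in heterozygotes against 16.4, 16.1 and 11.4 CPM in mutants. Its mean rose 4.93-fold, from 2.97 ± 1.11 to 14.6 ± 2.83 CPM. On the log2(CPM + 1) scale its change was 2.003 (SE 0.28, limma, BH-adjusted p = 0.00694). Both rises held without any 1 library (limma, BH-adjusted p up to 0.0445). Neuronal markers were higher in the same mutant libraries, as given above, and their part in these rises was not tested.

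Kcnd3, a subunit of the transient A-type current, was at 9.55, 17.4 and 14.7 CPM in heterozygous and 27.3, 26.5 and 36.5 CPM in mutant vestibules, without overlap. Its log2 change of 1.09 (SE 0.24) just missed the threshold (limma, BH-adjusted p = 0.0522), and it was called with the block (0.000272) and by edgeR on the recovered reads (BH-adjusted p = 0.0434). The members called with the block alone, here and in the cochlea, are named after their values were seen. Except where marked, SEs here and below are of the fit without the block. With the block the vestibular SE was 0.080 for Kcnh7 and 0.082 for Kcnab2 (limma, BH-adjusted p = 0.0207 and 0.0157). Among voltage-gated pores Kcna2 (1.10, SE 0.27), Kcna6 (0.67, SE 0.25), Kcnh6 (0.47, SE 0.13) and Kcnh7 (0.28, SE 0.21) were also called higher with the block, and Kcna1 (-0.80, SE 0.33) and Kcnq1 (-0.79, SE 0.24) lower. The block added the silent subunit Kcns3 (0.54, SE 0.19), the inward rectifiers Kcnj2 (0.48, SE 0.20) and Kcnj4 (0.82, SE 0.28) and the cytoplasmic subunit Kcnab2 (0.30, SE 0.19) to the genes called higher. It added the tandem-pore gene Kcnk12 (-0.86, SE 0.41), Kcnip4 (-0.79, SE 0.28) and the auxiliary genes Kcnmb2 (-0.45, SE 0.20) and Kcnmb4 (-0.68, SE 0.25) to those called lower. For Kcnmb4 31.5% of exon bases are shared with another gene.

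Kcnj16 (chromosome 11, 110968033 to 111027968, plus strand) was at 15.5, 8.89 and 11.4 CPM in heterozygous and 5.28, 4.29 and 3.11 CPM in mutant vestibules. Mutants lay below heterozygotes, with a log2 change of -1.30 (SE 0.27; limma, BH-adjusted p = 0.0387). It was no longer called once any heterozygote or mutant replicate 2 or 3 was left out (limma, BH-adjusted p up to 0.143), in edgeR (BH-adjusted p = 0.0530) and with no filter on low values (limma, BH-adjusted p = 0.127). Its partner Kcnj10 was at 39.2, 63.0 and 11.8 CPM in heterozygotes against 24.7, 31.8 and 9.83 CPM in mutants, lower in each same-numbered pair (log2 change -0.62, SE 0.60 or 0.14 with the block; limma, BH-adjusted p = 0.696 without and 0.00676 with the block). Kcnq1, the pore of the potassium-secreting channel, was at 10.7, 6.79 and 6.503 CPM in heterozygotes against 3.64, 4.25 and 4.46 CPM in mutants. Its adjusted p was 0.147, or 0.0173 with the block (limma, BH-adjusted), while Kcne1, its partner (-0.55, SE 0.26), and Kcnj8, a subunit of ATP-sensitive channels of pericytes (-0.83, SE 0.25), were called lower with the block as well.

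Markers of several other cell types, but not of all, were lower in the same mutant vestibules. The marginal and dark cell markers, without channel genes, summed to 266 to 490.8 CPM in heterozygous and 145 to 284 CPM in mutant vestibules, with 0 of 6 called (5 lower with the block). Schwann and satellite glia markers summed to 381 to 440.2 and 239.9 to 268 CPM, with 1 of 8 lower (6 with the block). Endothelial and pericyte markers summed to 120.4 to 178 and 68.4 to 117 CPM, with 0 of 7 called (5 lower with the block). For mesenchyme the sums were 1841 to 2360 and 991 to 1341 CPM, with Col1a1 and Col3a1 lower among 7 (all 7 with the block). Every one of these markers had reads. The granulocyte and mast cell markers, given above, had vestibular median log2 changes of -2.84 and -2.65. Supporting cell markers summed to 747 to 1458 and 916 to 1225 CPM, with 0 of 8 called (2 higher with the block). Macrophage sums of 3811 to 5603 and 3651 to 4360 CPM also overlapped, with 0 of 8 called (2 lower with the block). Erythroid sums of 2351 to 6712 and 1747 to 6376 CPM overlapped as well, with 0 of 4 called. Of all vestibular genes 2.41% were called higher and 1.09% lower without the block, and 10.5% higher and 12.8% lower with it. The part of these cells in the levels of Kcnj16, Kcnj10, Kcnq1, Kcne1 and Kcnj8 was not tested.

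**Figure D4:**
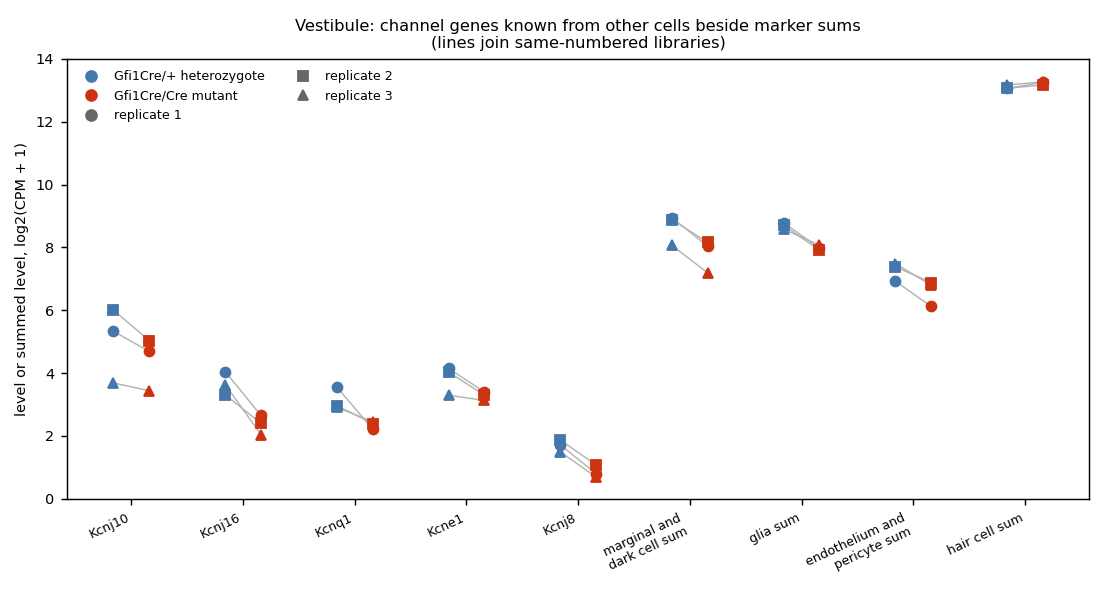
Levels of 5 vestibular channel genes known from cells other than hair cells, beside the summed levels of marker lists, on the log2(CPM + 1) scale; lines join same-numbered heterozygous (blue) and mutant (red) libraries. All 5 genes and the 3 lists of other cells are lower in the mutant of each pair, whereas the hair cell sum, 8536 to 9212 CPM in heterozygotes, is not.

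The remaining vestibular genes were not called, with or without the block. Kcnma1 was at 61.4 ± 5.40 CPM in heterozygotes against 61.9 ± 9.68 CPM in mutants (log2 change 0.00, SE 0.16). Kcnab1 was at 94.1 ± 8.25 and 101 ± 4.13 CPM, and the tandem-pore gene Kcnk6 at 48.9 ± 5.09 and 51.4 ± 4.07 CPM. Kcnn2 was at 6.05 ± 1.05 and 8.14 ± 2.22 CPM (0.36, SE 0.25), and Kcnk1 at 4.003 ± 1.72 and 2.34 ± 0.295 CPM (-0.53, SE 0.29). Kcnn4, the intermediate-conductance calcium-activated channel, was at 15.01 ± 3.41 and 11.2 ± 6.95 CPM (-0.50, SE 0.37), Kcnt2 at 2.20 ± 1.16 and 1.64 ± 0.816 CPM, and Kcnip3 at 5.57 ± 0.562 and 3.41 ± 1.36 CPM (-0.62, SE 0.28). Of the silent subunits Kcnf1 was at 14.3 ± 3.05 and 11.3 ± 1.43 CPM, Kcnv1 at 8.49 ± 1.35 and 6.83 ± 2.35 CPM and Kcng2 at 1.41 ± 0.585 and 1.196 ± 0.644 CPM. Kcnd1, highest of its subfamily per length in heterozygotes, had a log2 change of -0.39 (SE 0.23). Of the 7 calcium- or sodium-activated, 6 tandem-pore and 10 auxiliary genes none was called without the block, against 3.5% of all genes, and none in edgeR.

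The change with genotype was then compared between organs in a single fit, as the cochlear minus the vestibular change. It differed for 2 of the 52 genes tested in both organs, Kcnq1ot1 included, against 3.14% of all 14674 genes. These 2 were Kcna10 and Kcnh2. Hair cell markers had median log2 changes of -0.89 in the cochlea and 0.10 in the vestibule, and their part in these differences was not tested. Kcna10 fell more steeply in the cochlea, by -3.30 against -1.06, a difference of -2.24 (SE 0.28; limma, BH-adjusted p = 0.000444). Kcnh2 fell in the cochlea while its vestibular levels were 85.0, 54.5 and 56.3 CPM in heterozygotes against 94.6, 62.6 and 64.9 CPM in mutants. That difference was -1.38 (SE 0.28; limma, BH-adjusted p = 0.0124). With the block 9 differed, against 13.3% of all genes, and Kcnh7 was among them (-0.70, SE 0.25; limma, BH-adjusted p = 0.194, or 0.000965 with the block), being called lower in the cochlea and higher in the vestibule with it. Of the 52 genes 2, Kcna10 and Kcnj5, were called in the same direction in both organs, against 1.12% of all 14674 genes. Kcna2 and Kcna6 joined them with the block, against 3.61% of all genes.

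**Figure D5:**
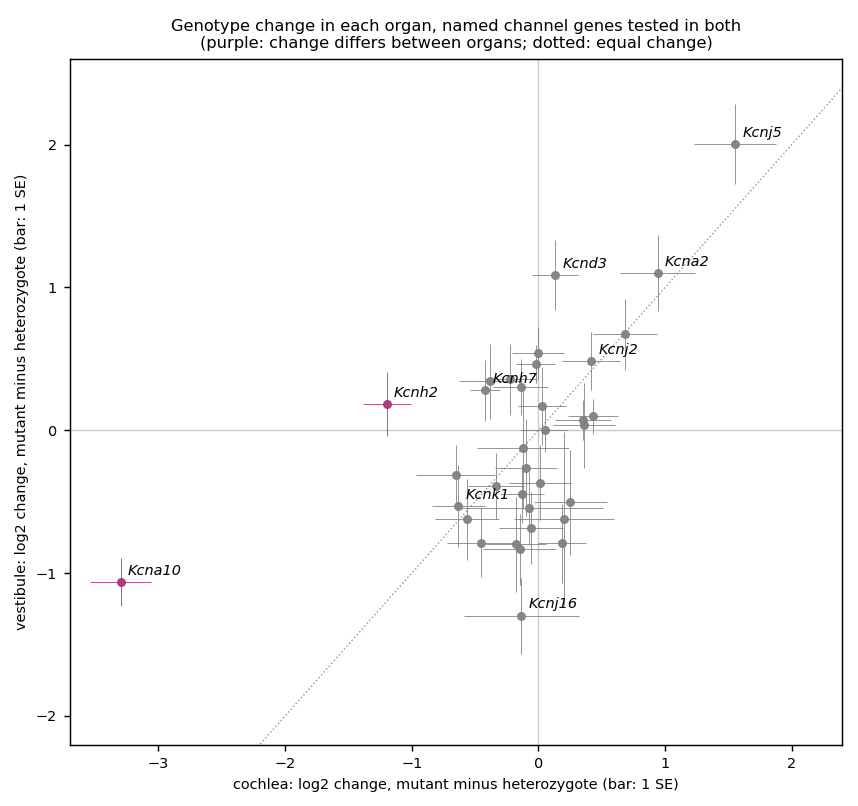
Log2 change from heterozygote to mutant in the cochlea (horizontal) and vestibule (vertical) for named channel genes tested in both organs, with bars of 1 standard error; the dotted line marks equal changes. Kcna10 (-3.30 and -1.06) and Kcnh2 (-1.20 and 0.18), in purple, differed between organs, and Kcnj5 (1.56 and 2.003) lies near the line.

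Several of these genes are neighbours, and the members of a cluster had changes of both signs. Kcna2, Kcna3 and Kcna10 lie within 159.6 kb of chromosome 3 (107036169 to 107195721). Kcna10 fell in both organs, Kcna2 had positive log2 changes of 0.94 and 1.10 and was called higher with the block in both, and Kcna3 stayed below the filter, at up to 1.68 CPM in the cochlea and 0.536 CPM in the vestibule. Kcna1, Kcna5 and Kcna6 lie within 208 kb of chromosome 6 (126532551 to 126740674). In the vestibule Kcna5 rose, Kcna6 was called higher and Kcna1 lower with the block. Kcnj5 and Kcnj1 lie within 84.5 kb of chromosome 9, and Kcnj1 had 1 read in all cochlear libraries together and 2 in the vestibular ones.

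Genes outside the rule that work with potassium channels were counted from lists chosen with earlier results known. Of 10 tested partner genes in the cochlea Dpp6 fell and 1 gene rose. Dpp6, an auxiliary protein of A-type channels, went from 36.6 ± 0.801 to 12.0 ± 3.96 CPM (log2 change -1.58, SE 0.21). None of 9 was called in the vestibule, where 3 were higher and 1 lower with the block. Over all genes 4.41% were called in the cochlea and 3.5% in the vestibule without the block. The block called 4.21% higher and 4.31% lower in the cochlea, and 10.5% and 12.8% in the vestibule. Of 14 genes of potassium transport (sodium pump subunits, cation-chloride cotransporters, connexins and a volume-regulated anion channel subunit) none was called in either organ, and with the block 4 were lower in the cochlea and 8 lower and 1 higher in the vestibule. Atp1b1, a sodium pump subunit, went from 445 ± 48.2 to 286 ± 47.1 CPM in the vestibule (-0.65, SE 0.15; limma, BH-adjusted p = 0.0645).

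Among symbols below the filter, 31 in the cochlea and 30 in the vestibule, all had at least 1 read in the organ. Kcna5 was at 0.127 to 0.811 CPM in the cochlea, from 1 to 7 reads a library. Kcng1 had 11, 4 and 7 reads in heterozygous vestibules and 0 in each mutant one, where 3 reads would be 0.123 to 0.158 CPM. Kcnd2, just inside the filter in the cochlea, had 1.27, 0 and 0.320 CPM in heterozygotes against 1.12, 2.19 and 1.97 CPM in mutants. Kcna3 and Kcnip1 were among the genes just outside the filter there, with 2 libraries at 1 CPM. Kcnq1ot1, the RNA antisense to Kcnq1, was at 715 to 837 CPM in heterozygous and 551 to 961 CPM in mutant cochleae. In the vestibule it went from 28.0, 37.7 and 44.2 CPM to 15.7, 28.7 and 33.4 CPM, lower in each same-numbered pair, and was called lower with the block (log2 change -0.52, SE 0.29; limma, BH-adjusted p = 0.436, or 0.00752 with the block). Kcnmb4os2 was at 0.461 to 4.51 CPM in the vestibule. The strand setting of the counts is not known here. For Kcna6, Kcnj13, Kcnk2 and Kcnmb4 in both organs, Kcnj3 in the cochlea and Kcnmb4os2 in the vestibule, more than 10% of exon bases overlap another gene, and their values are uncertain.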

How the data were processed

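Ribosome-bound RNA from 3 heterozygous and 3 mutant samples per organ was sequenced; cochlear libraries used a NuGEN ultralow kit and vestibular libraries a directional New England Biolabs kit, per the labels' protocols. The deposited values are CPM per gene, 1 table per library, as the names of the tables and the sums of their values show. TopHat and GRCm38 are named in the submitters' processing notes; the counter, strand setting and annotation are not given in the sources used here. Dividing each value by that of 1 read gave whole numbers (100% of values, tolerance 1e-06), and these recovered reads entered the count tests. Reads outside the listed genes were 0.119% to 0.729% of a library.

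Genes with 1 CPM or more in at least 3 of 6 libraries were fitted per organ on log2(CPM + 1) by limma 3.58.1 with a mean-variance trend (R 4.3.3), adjusted by Benjamini-Hochberg over all genes tested. This scale understates the change of low genes. The organ difference was an interaction term over 12 libraries; a constant kit effect on a gene cancels in it, an effect on fold size does not. The fit was tested on simulated data. Same-numbered libraries deviated together (correlations of deviations cochlea 0.226 to 0.420, vestibule 0.508 to 0.766, all 3 pairs of an organ above 0.1), pairing the samples by the numbers in their titles, so blocked values are given where they change a call. In the vestibule heterozygote replicate 2 with mutant replicate 3 (0.318) and heterozygote replicate 3 with mutant replicate 2 (0.220) also deviated together. A value above 0.1 thus does not set same-numbered pairs apart there. The series describes the samples as independent biological triplicates. Exon lengths and positions came from GENCODE M21 on GRCm38. Other settings tried were a pseudocount of 0.25 or 4, a filter of 5 CPM or none, median-of-ratios and quantile scaling, the block, libraries left out, edgeR 4.0.16 and DESeq2 1.42.0. Figures were drawn with matplotlib 3.10.9. The genes named are those called in an organ or between organs, the highest per length of each subfamily and known hair cell channel genes. Some of these genes are not reported here; they stay in the counts. Members, lists and rules were chosen with earlier results of these data known.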

Additional observations from a re-analysis of the deposited data

Results flagged for a closer look

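The genotype change differed between organs, by the interaction term, for 2 channel genes. For Kcna10 the cochlear minus the vestibular change was -2.24 (SE 0.28; limma, Benjamini-Hochberg adjusted p = 0.000444). Mutants were below heterozygotes in 3 of 3 libraries of each organ. Its adjusted p was 0.000648 to 0.00202 with libraries left out. For Kcnh2 the difference was -1.38 (SE 0.28; limma, Benjamini-Hochberg adjusted p = 0.0124), with mutants lower in all 3 same-numbered cochlear pairs and higher in all 3 vestibular ones. Its adjusted p was 0.00251 to 0.0445 with libraries left out.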

How the results depend on the processing

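In the cochlea 794 genes were called, 1532 with the replicate block and 546 to 801 without 1 library. In the vestibule 546 were called, 3634 with the replicate block, 358 without a filter, 1234 with DESeq2, 863 without both replicate 1 libraries and 226 to 522 without 1 library, with 226 to 293 when replicate 2 or 3 of either genotype was left out. Of the channel genes 5 were called in the cochlea, 9 with the replicate block, 3 with a filter of 5 CPM, which Kcng1 and Kcnj5 do not reach, and 3 to 5 without 1 library. In the vestibule 4 were called, 23 with the replicate block, 7 with DESeq2 and 2 to 4 without 1 library. For the difference between organs 2 were called, 9 with the replicate block. The split of higher and lower channel genes was 1 and 4 in the cochlea and 3 and 2 in the vestibule with median-of-ratios or quantile scaling, as Kcng1 was lost and Kcnh7 and Kcnd3 were gained; these scalings moved the median of all genes by less than 0.1. No called channel gene changed direction in any alternative run. Of 934 cochlear and 943 vestibular values of single genes whose call did not change, 81 and 47 changed sign, none of them called. Where a call depended on a setting, the cause was not tested. Leaving out libraries from the organ difference was chosen after seeing the data. Depth limits the low cochlear genes most, where 1 read is 0.107 to 0.133 CPM.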

Other observations

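Summed over the 23 voltage-gated pore genes of the vestibule, levels were 883 ± 9.45 CPM in heterozygotes against 737 ± 60.2 CPM in mutants. Without Kcna10 the other 22 summed to 398 to 419 CPM in heterozygotes against 492 to 514.3 CPM in mutants, so that the rest of the group stood higher in every mutant library while its total stood lower. In the cochlea the 25 voltage-gated pore genes tested there, not all the same ones, summed to 640.1 to 705 CPM in heterozygotes against 503 to 625 CPM in mutants, and without Kcna10 to 610.2 to 669 and 499 to 623 CPM. Inward rectifiers summed to 96.2 ± 24.3 and 96.9 ± 11.2 CPM in the vestibule, although Kcnj5 rose and Kcnj16 fell there. These sums were formed after the values of the genes were seen and were not tested.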
